A study of Homo sapiens with 32 samples.

Results

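The genes examined were 10 that encode enzymes of glycolysis and of lactate formation: GPI, ALDOA, TPI1, GAPDH, PGK1, PGAM1, ENO1, PKM, LDHA and LDHB. They were taken by name, out of 63793 annotated genes, and every tag on the gene strand between the hg19 (GRCh37) start and end of each gene was counted. A tag is 1 deduplicated cDNA assigned to the base at which a protein was crosslinked to RNA. All 10 genes had at least 1 tag. Together they held 3413 of 2729065 tags, or 0.125% of the series. GPI held 952 of these tags, PKM 719, ENO1 692, PGK1 244, GAPDH 223, LDHB 200, ALDOA 186, TPI1 89, LDHA 86 and PGAM1 22.

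Glycolysis turns glucose into pyruvate in the cytoplasm and yields ATP and NADH, and lactate dehydrogenase then turns pyruvate into lactate and gives back NAD+. The enzymes are made from intron-containing genes that dividing cells transcribe strongly, so that their mRNAs have to be spliced, packaged and exported in large amounts. Alyref and Chtop are RNA-binding subunits of TREX, the complex that links transcription and processing of mRNA with its nuclear export, and Nxf1 is the receptor that carries the mRNA through the nuclear pore. In iCLIP, ultraviolet light crosslinks protein to RNA in living cells, the protein is immunoprecipitated, and reverse transcription tends to stop next to the crosslinked base.

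Every group was a HEK293T FlpIn line, a cell line of human embryonic kidney origin that carries a target site for inserting a transgene, and every immunoprecipitation was against FLAG. The lines expressed FLAG-tagged Alyref or Chtop after 48 h of tetracycline at 10 ng/mL, FLAG-tagged Nxf1 after 48 h at 5 ng/mL, or, as the Control, the FLAG construct of the FlpIn locus without a factor. Whether the Control was induced is not given in the sources used here. The 32 lane runs belonged to 12 libraries, 3 per group. No source says that the libraries of a group came from separate cultures, so p-values measure only the spread between these libraries, which may be technical. The tagged factors were present beside the untagged proteins of the cell, and tetracycline dose differed between Nxf1 and the other factors.

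The deepest Alyref library held 631704 tags and the shallowest 81307, Chtop ranged from 47052 to 538844, Nxf1 from 8134 to 179346 and the Control from 7017 to 46628. Library 1 was the shallowest in each group. The 10 genes received 9 tags in Nxf1 library 1 and 11 in Control library 1. A count of 0 allows up to 4.75 CPM (tags scaled to 1000000 per library) in Alyref library 2 but up to 428 in Control library 1, taking 3 tags as the limit. The kidney-line markers VIM, KRT8 and PAX2 had 98, 42 and 28 tags in the Alyref libraries, KRT18 had 11 and NEFM 1. Of the markers of other cells, INS had 0 tags in all libraries and ALB 1 in Alyref. HBB had 5 tags in Alyref and 7 in Chtop, PTPRC had 3 in Chtop, and the Nxf1 and Control libraries had 0 of either.

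The stretches printed here held a small part of the tags on their genes, such as 31 of the 425 Alyref tags on ENO1. For the genes on which the results turn, the 30-nt window with most tags of 1 factor is printed below from the GRCh37 genome, 5′ to 3′ on the strand of the gene. Capitals mark bases at which that factor had at least 1 tag. They show where Alyref tags lay at the 5′ ends and where Chtop tags lay in the 3′ untranslated regions (UTRs).
ENO1 exon 1, Alyref, chr1:8938661-8938690, minus strand: TgTCTgcagcACCCTccgctTCCTCTCCTa
PKM exon 1, Alyref, chr15:72523467-72523496, minus strand: TtCgtCTTtGCagCGTagcccgagTcGgtC
PKM 3′ UTR, Chtop, chr15:72491653-72491682, minus strand: GTccagTtcCTtTaGAaaaaAtggATgccC
GPI 3′ UTR, Chtop, chr19:34891622-34891651, plus strand: gcagatattGaaaactggaATTTTTTTtTT
ENO1 3′ UTR, Chtop, chr1:8921165-8921194, minus strand: TcAttgTttTtctcgcctcaCTTTCcacca

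The ENO1 exon 1 window held 31 Alyref tags, 1 Chtop tag, 2 Nxf1 tags and 1 Control tag. Alyref was found on 18 of its 30 bases, including 8 of the 9 thymines. The PKM exon 1 window held 18 Alyref tags and 1 Chtop tag. In the PKM 3′ UTR window there were 14 Chtop tags and 7 Alyref tags, although the Alyref libraries were the deeper ones. The GPI 3′ UTR window, which ends in a run of thymines, held 18 Chtop tags, 10 Alyref tags and 1 Nxf1 tag. In the ENO1 3′ UTR window the counts were 11 for Chtop, 10 for Alyref and 0 for Nxf1. Each window was chosen for its tags, so these counts are descriptions.

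The amount of crosslinking to each gene was described next. The number of tags on an RNA depends both on how much of the RNA the cells held and on how often the factor touched it, and within this assay these cannot be told apart. Gene-body levels in CPM run with the length of the gene and its introns, so genes were ranked by exonic CPM per kb of mature transcript. In the pooled Alyref libraries ENO1, which encodes the enolase that forms phosphoenolpyruvate, stood highest at 117. PKM, the pyruvate kinase gene, followed at 69.9, GAPDH at 57.9, GPI at 44.8, LDHB at 37.3, ALDOA at 32.4 and TPI1 at 21.9 CPM per kb. PGK1 at 8.68, LDHA at 8.14 and PGAM1 at 1.69 were the lowest, and PGAM1 alone was below the median of 1.94 over 19234 protein-coding genes with a canonical transcript. ENO1 was above 99.9% of those genes. In the pooled Nxf1 libraries ENO1 was again highest at 128, followed by GAPDH at 112, PKM at 73.6 and LDHB at 65.1 CPM per kb. In Chtop PKM was highest at 61.1, before ENO1 at 58.6 and GPI at 51.6 CPM per kb. The Control had ENO1 highest too, at 68.2 CPM per kb, above 99.95% of genes, with PKM at 52.7, GAPDH at 51.5 and LDHB at 50.8.

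**Figure D1:**
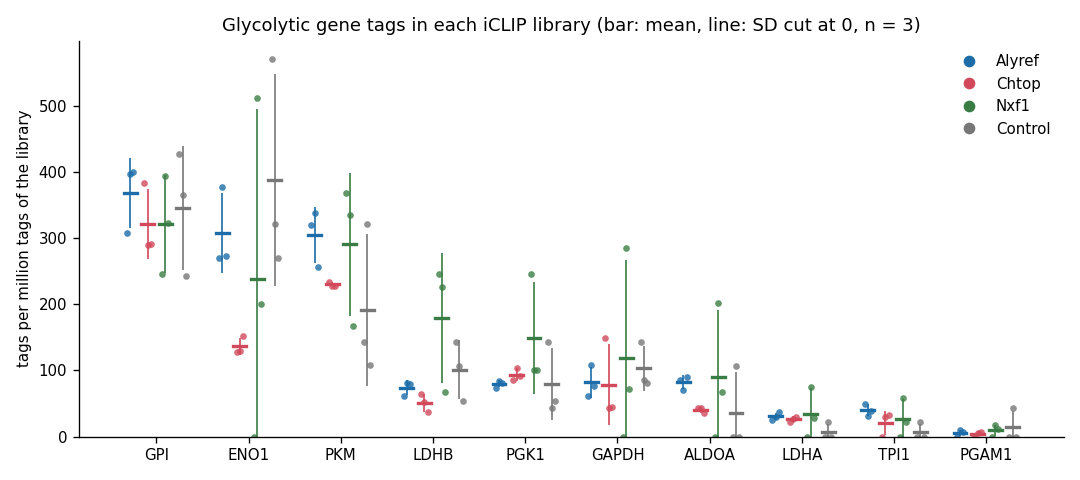
CPM for each of the 10 genes (x axis) in each library (points, coloured by group), with bars at the mean and lines for the SD over 3 libraries, cut at 0. By the mean, ENO1, PKM and GPI stand highest in every group, and the ENO1 points of Nxf1 run from 0 to 512.

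Over gene bodies, GPI, the isomerase that turns glucose 6-phosphate into fructose 6-phosphate, had 368 ± 52.5 CPM in Alyref, 321 ± 53.3 in Chtop, 321 ± 74.2 in Nxf1 and 345 ± 93.6 in the Control (SD, n = 3). These ranges overlap in every pair of groups. PKM had 305 ± 42.2 CPM in Alyref, 230 ± 3.22 in Chtop, 291 ± 108 in Nxf1 and 191 ± 115 in the Control (SD, n = 3). The 3 Alyref libraries of PKM were above the 3 Chtop libraries, which lay close together. PGK1, the kinase of the first ATP-yielding step, had 79.6 ± 5.24 CPM in Alyref, 93.2 ± 9.69 in Chtop, 149 ± 83.9 in Nxf1 and 79.8 ± 54.6 in the Control (SD, n = 3), with a single Nxf1 library setting most of that spread. ALDOA, the aldolase that splits fructose 1,6-bisphosphate, had 81.8 ± 10.6 CPM in Alyref, 40.04 ± 4.43 in Chtop, 89.4 ± 103 in Nxf1 and 35.7 ± 61.9 in the Control (SD, n = 3). All 5 Control tags of ALDOA were in library 2, and the other Control libraries had 0. LDHA, the lactate dehydrogenase subunit that predominates in muscle, and TPI1, which interconverts the triose phosphates, had 1 Control tag each, so that for them the Control gives little comparison. PGAM1, the phosphoglycerate mutase, had 10, 6, 4 and 2 tags in Alyref, Chtop, Nxf1 and the Control.

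Of the 6 genes with most tags, PKM alone had a Control mean below those of all 3 factors. ENO1 reached 387 ± 160 CPM in the Control (SD, n = 3) against 307 ± 60.5 in Alyref, 136 ± 13.1 in Chtop and 238 ± 258 in Nxf1. The 6 pairs of groups were compared per gene by edgeR's quasi-likelihood F-test over 3682 genes with enough tags. Of the 10 genes, 6 passed that filter: ENO1, PKM, GPI, GAPDH, LDHB and PGK1. Against the Control, none of the 6 differed for Alyref, for Chtop or for Nxf1 at a Benjamini-Hochberg adjusted p under 0.05 in this edgeR fit. Of all genes tested, 0.0272% were called for Alyref, 13.5% for Chtop and 0% for Nxf1 against the Control, although 279 genes had an unadjusted p under 0.05 for Nxf1. The nearest to a call was ENO1 between Chtop and the Control, with a log2 fold change of -1.22 (edgeR adjusted p = 0.0726), and it was the 1 member with an unadjusted p under 0.05 in the 3 comparisons. DESeq2 called it, at -1.40 (adjusted p = 0.0394), and no other member against the Control. PGK1 in Nxf1 against the Control had 1.105 on the log2 scale (edgeR adjusted p = 0.709). The 3 Control libraries held 108 tags on the 10 genes in all.

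Between the factors, the edgeR fit over all libraries called ENO1 higher in Alyref than in Chtop. It called ENO1, GAPDH and LDHB lower in Chtop than in Nxf1. Both results depended on single libraries, as given below. ENO1 had 271, 377 and 274 CPM in Alyref libraries 1, 2 and 3, and 128, 129.9 and 151 in the Chtop libraries. Every Alyref library was above every Chtop library. The log2 fold change was 1.09 with an SE of 0.36 (edgeR adjusted p = 0.0423), and ENO1 was the 1 of 6 tested members called, where 5.02% of all genes were higher in Alyref. That call was lost without Alyref library 1, 2 or 3, Chtop library 2 or 3, or Control library 1 or 3, with values between 0.89 and 1.18. The edgeR adjusted p reached 0.244 without Alyref library 2. ENO1 was not called by DESeq2 either, at 1.05 (adjusted p = 0.0857).

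In Nxf1, ENO1 had 0, 512 and 201 CPM in libraries 1, 2 and 3, from 0, 61 and 36 tags. Library 1 is too shallow to set an upper limit under 369 CPM, and the other Nxf1 libraries were above all Chtop libraries. The log2 fold change of ENO1 between Chtop and Nxf1 was -1.32 with an SE of 0.39 (edgeR adjusted p = 0.0171).

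GAPDH, which oxidises glyceraldehyde 3-phosphate and reduces NAD+, had 149, 42.7 and 44.2 CPM in Chtop libraries 1, 2 and 3 and 0, 285 and 72.5 in the Nxf1 libraries. The groups overlap, as the shallow Chtop library 1 rests on 7 tags. The fitted log2 fold change was -1.79 with an SE of 0.48 (edgeR adjusted p = 0.0103). LDHB, the lactate dehydrogenase subunit that predominates in heart, had 63.8, 52.0 and 37.2 CPM in the Chtop libraries and 246, 227 and 66.9 in the Nxf1 libraries. All Nxf1 libraries of LDHB were above all Chtop libraries, the lowest of them by little. Its log2 fold change was -1.78 with an SE of 0.43 (edgeR adjusted p = 0.00517). The 246 CPM of Nxf1 library 1 rest on 2 tags. LDHB passed the filter on low counts through Nxf1 and Control libraries only, as its Alyref and Chtop libraries reached at most 80.7 CPM. Its test between Chtop and Nxf1 is therefore not independent of the filter.

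These 3 of 6 tested members compare with 9.67% of all genes called lower in Chtop than in Nxf1 by the same edgeR test. LDHB entered that test through its Nxf1 and Control levels only. The values of PKM at -0.26, GPI at -0.27 and PGK1 at -0.35 on the log2 scale did not pass it. The median over the 6 members was -0.84, with all 6 below 0, beside a median of 0.04 over all genes tested. Neither LDHB nor PGK1 would have passed the filter on low counts without its Nxf1 libraries. The shared sign is therefore not independent of that filter, and without it PKM, GPI and PGK1 were above 0. Nxf1 library 2 carried the calls of ENO1, GAPDH and LDHB, and without that library none of the 6 was called. The log2 fold changes were then -0.70 for ENO1, -0.68 for GAPDH and -1.11 for LDHB. Without Chtop library 2, or without Chtop library 3, LDHB alone passed. DESeq2 called ENO1 and LDHB but not GAPDH, at -1.40 (adjusted p = 0.125). With no filter on low counts, where 33781 genes were tested, none of the members was called in the comparisons between factors. Between Alyref and Nxf1, 0 of 6 members and 4.13% of all genes were called by edgeR, and 0 members by DESeq2, although LDHB and GAPDH had an unadjusted edgeR p under 0.05. The values there were -1.12 for LDHB (edgeR adjusted p = 0.102), -1.10 for GAPDH (edgeR adjusted p = 0.149), -0.68 for PGK1, -0.23 for ENO1, -0.10 for GPI and 0.05 for PKM on the log2 scale.

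Counting exonic tags only widened these differences. Exonic tags were those in any annotated exon of the gene, and 1765 genes and 5 of the 10 members passed the filter, PGK1 no longer among them. LDHB again passed through Nxf1 and Control libraries only, so its tests against Nxf1 are not independent of the filter. GAPDH passed only through Chtop library 1, Nxf1 library 2 and Control library 1. Its tests against Nxf1 are therefore not independent of the filter either. All 5 members were lower in Chtop than in Nxf1, where 15.4% of all genes were. The log2 fold changes were -2.59 for ENO1, -3.04 for GAPDH, -3.09 for LDHB, -1.45 for PKM and -1.26 for GPI, with a median of 0.13 over all genes tested. Against Nxf1, Alyref was lower on 4 of 5 members, with 11.4% of all genes called lower. The values were -0.99 for ENO1, -1.90 for GAPDH, -1.77 for LDHB and -1.02 for GPI on the log2 scale. Against Chtop, Alyref was higher on ENO1 at 1.60, GAPDH at 1.14 and LDHB at 1.32, so 3 of 5 members compare with 17.8% of all genes. With exonic tags and no filter, added after seeing the data, the values between Chtop and Nxf1 were -1.51 for ENO1, -1.86 for GAPDH, -2.04 for LDHB, -0.42 for PKM and -0.22 for GPI. The 4 members called were ENO1, GAPDH, LDHB and ALDOA. PKM and GPI were not called, and neither was any member between Alyref and either other factor. ENO1 was also lower in Chtop than in the Control, at -2.11 on the log2 scale (edgeR adjusted p = 0.0175), where 5.55% of all genes were lower.

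When each library was left out of the exonic count in turn, which was added after seeing the data, ENO1 stayed called in 12 of 12 edgeR fits between Chtop and Nxf1 and in 12 of 12 between Alyref and Chtop. Its log2 fold change ranged from -2.70 to -2.21 in the former and from 1.47 to 1.66 in the latter. Other calls held less well. Between Alyref and Nxf1, ENO1 stayed called in 1 of 12 fits, GPI in 2, LDHB in 10 and GAPDH in 11. Without Nxf1 library 2, ENO1 was the 1 member called between Chtop and Nxf1, and 0 members were called between Alyref and Nxf1. Between Alyref and Chtop, ENO1 was the 1 member called without Alyref library 2 or 3, or without Chtop library 2 or 3. The ENO1 call between Chtop and the Control was lost without Chtop library 2, Control library 2 or Control library 3.

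**Figure D2:**
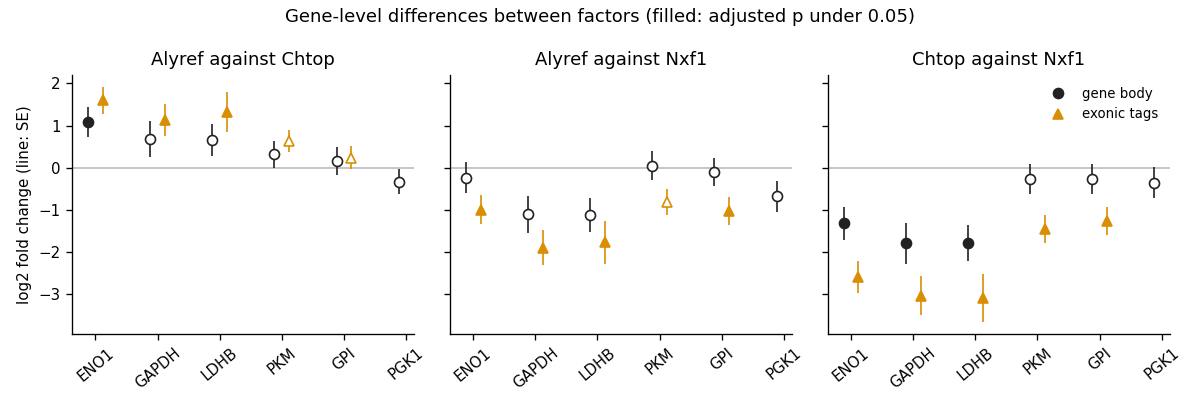
Log2 fold changes (y axis, with lines for the SE) of the 6 tested members between each pair of factors, from all gene-body tags (circles) and from exonic tags only (triangles, 5 members). Filled symbols had an adjusted p under 0.05; ENO1, GAPDH and LDHB lie lowest between Chtop and Nxf1 at -1.32, -1.79 and -1.78 with gene-body tags.

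Where on the transcripts the tags fell was described over the 10 genes together. Shares are percentages of all gene-body tags of the 10 genes, with the 5′ UTR, coding sequence (CDS) and 3′ UTR of the canonical transcript, exonic sequence of other isoforms, and introns kept apart. In the 5′ UTR lay 10.8%, 8.10% and 7.19% of Alyref tags and 5.77%, 1.37% and 1.23% of Chtop tags in libraries 1, 2 and 3. All Alyref libraries were above all Chtop libraries. The mean was 8.69% ± 1.87 in Alyref, 2.79% ± 2.58 in Chtop and 3.56% ± 3.28 in Nxf1 (SD, n = 3). The Control had 12.3% ± 13.1, set by 3 of the 11 tags in its library 1. Over all protein-coding genes the 5′ UTR took 4.17% of Alyref tags and 3.45% of Chtop tags. ENO1 alone held 65 of the 147 pooled Alyref tags in the 5′ UTRs of the members, and the share without ENO1 was not examined.

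In the 3′ UTR the order was the other way round. It held 13.7%, 14.4% and 15.5% of Alyref tags and 26.9%, 32.4% and 44.5% of Chtop tags in libraries 1, 2 and 3, with no overlap. The means were 14.5% ± 0.888 in Alyref, 34.6% ± 8.98 in Chtop, 28.2% ± 14.0 in Nxf1 and 13.3% ± 11.98 in the Control (SD, n = 3). All protein-coding genes gave 14.7%, 29.2%, 18.8% and 9.70%, so in Alyref the glycolytic transcripts lay near the rest. Each Chtop library lay above its value over all protein-coding genes, which was 24.9%, 27.8% and 34.9% in libraries 1, 2 and 3. This excess rested on GPI, which held 171 of the 361 pooled Chtop tags in the 3′ UTRs of the members. Of its own Chtop tags 57.2% lay there. With GPI left out, the share of the other members lay below that of all protein-coding genes in each Chtop library.

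Introns held fewer of the tags than in other genes. They took 25.8% ± 5.43 of the members' tags in Alyref, 22.7% ± 5.72 in Chtop, 20.7% ± 13.2 in Nxf1 and 27.4% ± 9.59 in the Control (SD, n = 3). The corresponding values over all protein-coding genes were 41.1%, 29.4%, 51.9% and 67.0%. The median member has 68.2% of its body outside exons, against 82.7% for all protein-coding genes. For bodies summed over genes, as the tags are, the shares are 89.3% and 91.7%. The part of these differences in the result was not tested. CDS took 35.8% in Alyref, 28.9% in Chtop, 39.0% in Nxf1 and 27.9% in the Control, where all protein-coding genes had 32.8%, 31.6%, 20.4% and 14.0%. These sums over the 10 genes were not tested, since the genes had been chosen with results of the same data known.

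**Figure D3:**
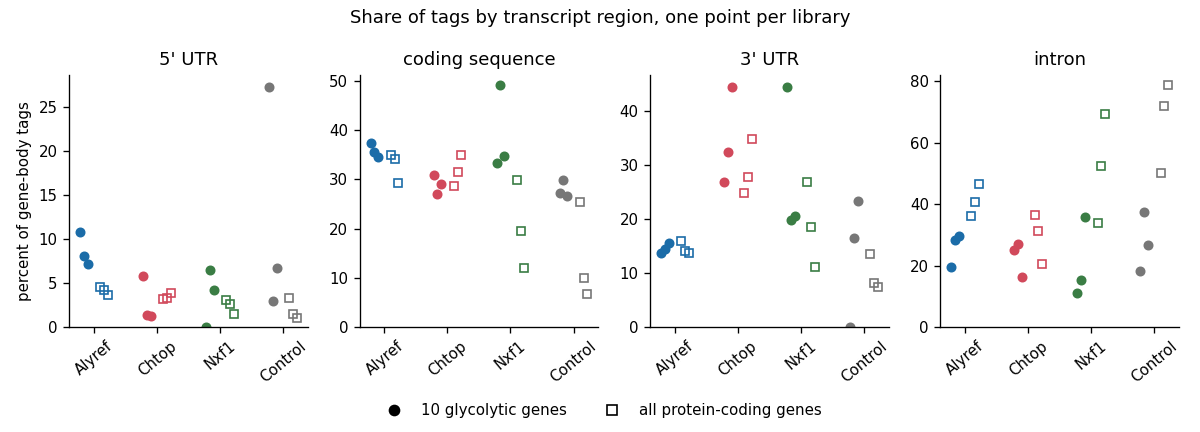
Share of gene-body tags (y axis, percent) in the 5′ UTR, coding sequence, 3′ UTR and introns for each library of the 4 groups, for the 10 glycolytic genes summed (filled circles) and all protein-coding genes (open squares). Chtop circles lie at 26.9% to 44.5% in the 3′ UTR, all above the Alyref circles at 13.7% to 15.5%.

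Gene by gene, the 3′ UTR share of pooled tags was higher in Chtop than in Alyref for 9 of the 10 genes, with ALDOA, at 12.5% against 13.3%, the exception. Of 11735 protein-coding genes with at least 5 tags in both groups, 78.7% showed the same direction. The 5′ UTR share was higher in Alyref for 8 of the 10. LDHA and PGAM1, with 0 Alyref tags there, were the others. Of those genes 48.6% were higher in Alyref, 26.6% were lower and the rest were equal, so the 2 counts are not fully alike.

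The shift within each gene was tested with edgeR's test of a region against the other regions of its gene. With the standard filter 762 regions over all genes were tested, of which 1.18% were called between Alyref and Chtop. GPI was the 1 member with regions tested, and none of its regions was called. Its 3′ UTR had a relative log2 fold change of -1.28 (edgeR adjusted p = 0.112) and its introns 1.21 (edgeR adjusted p = 0.132) between Alyref and Chtop. Keeping all regions with at least 10 tags gave 26234 regions and 31 regions of 9 members. There the ENO1 5′ UTR was used more by Alyref than by Chtop, with a relative log2 fold change of 4.10 (edgeR adjusted p = 0.00616). It was the 1 member region called, where 0.8% of all regions were called in either direction. Against the Control, the ENO1 5′ UTR had a relative log2 fold change of 0.50 for Alyref and -3.60 for Chtop in the same fit. Against Nxf1 the values were 0.84 and -3.26, and none of these was called.

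The ENO1 5′ UTR had 7, 35 and 23 tags in Alyref libraries 1, 2 and 3, 0, 1 and 0 in the Chtop libraries, 0, 5 and 4 in Nxf1 and 2, 1 and 0 in the Control. That is 15.3% of the ENO1 tags in Alyref and 0.709% in Chtop. No Chtop library had more than 1 tag, and each Alyref library had at least 7. The call rests on few Chtop tags and was lost without Alyref library 2 or 3 or Chtop library 2 or 3 in fits added after seeing the data, in which the relative log2 fold change ran from 3.34 to 6.01.

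PKM and GPI had their largest Chtop counts in the 3′ UTR. In PKM the 3′ UTR had 5, 27 and 15 tags in Alyref libraries 1, 2 and 3 and 2, 40 and 43 in the Chtop libraries. It took 11.9% of Alyref tags on PKM and 36.6% of Chtop tags. In GPI the 3′ UTR had 4, 58 and 57 Alyref tags and 6, 78 and 87 Chtop tags, or 23.02% and 57.2%. In both genes the pooled Chtop share was higher. In library 1 of PKM, with 5 of 26 Alyref tags and 2 of 11 Chtop tags in the 3′ UTR, the Chtop share was not higher. With bias-adjusted deviances, an edgeR setting for small counts that was added after seeing the data, the 3′ UTRs of PKM at -1.51 (edgeR adjusted p = 0.0326) and GPI at -1.21 (edgeR adjusted p = 0.0498) were also called, where 2.16% of all regions were. The median 3′ UTR over all genes had -0.91 in the fit of regions with at least 10 tags, so that both lie in the direction of the median gene.

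Along the exons, Alyref tags on the members were denser in the first exon than in the last, and in Chtop libraries 2 and 3 the order was the opposite. The log2 ratio of tag density in the last to the first exon, summed over the members with at least 3 exons, was -2.54, -2.03 and -1.75 in Alyref libraries 1, 2 and 3. In Chtop it was -0.49, 1.64 and 1.55. The Chtop libraries were all above the Alyref libraries, with library 1 the lowest of Chtop. Over all protein-coding genes the means were -1.32 in Alyref and -0.07 in Chtop. Of the Alyref tags in first exons of members, ENO1 held most at 60, before PKM at 25. The first exon share was higher in Alyref than in Chtop for 8 of 9 members with enough exonic tags. Of all genes compared 60.9% were higher, 21.0% lower and the rest equal. The last exon share was lower in Alyref for 9 of 9 members, against 78.9% of genes lower and 13.8% higher.

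ENO1 had such a gradient. Its exon 1, chr1:8938639-8938745 and 107 nt long, had 60 Alyref tags, 1 Chtop tag, 9 Nxf1 tags and 3 Control tags. Its exon 12, which ends in the 3′ UTR and is 430 nt long, had 47 Alyref and 46 Chtop tags. In density this is 426 CPM per kb in exon 1 and 83.0 in exon 12 for Alyref, and 9.20 and 105.3 for Chtop. With at least 10 tags per exon, ENO1 exon 1 was used more by Alyref than by Chtop at a relative log2 fold change of 3.87 (edgeR adjusted p = 0.0262), as the 1 member of 8 with a called exon, where 0.458% of 20514 exons were. The call was lost without Chtop library 2 or 3. Against the Control, ENO1 exon 1 had -0.21 for Alyref and -4.08 for Chtop on that scale, neither called. None of the 30-nt stretches starting in exon 1 occurs elsewhere in the genome on either strand, and shorter reads were not examined. With the standard filter 63 exons over all genes remained, 1.59% of them called, and none was from a member.

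PKM exon 1 had 25 Alyref tags and 4 Chtop tags, while its exon 11 had 57 and 91. In the fit with bias-adjusted deviances PKM exon 11 was used less by Alyref than by Chtop at -1.21 (edgeR adjusted p = 0.0231), beside ENO1 exon 1 at 3.87 (edgeR adjusted p = 0.00221), where 1.12% of exons were called. GAPDH exon 1 had 18 Alyref tags and 3 Chtop tags on its 53 nt. GPI did not peak at exon 1, which had 9 Alyref tags, and exon 16 was densest for Alyref and Nxf1, with 16 and 4 tags. Exon 18 of GPI, with the 3′ UTR, held 127 Alyref and 183 Chtop tags.

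**Figure D4:**
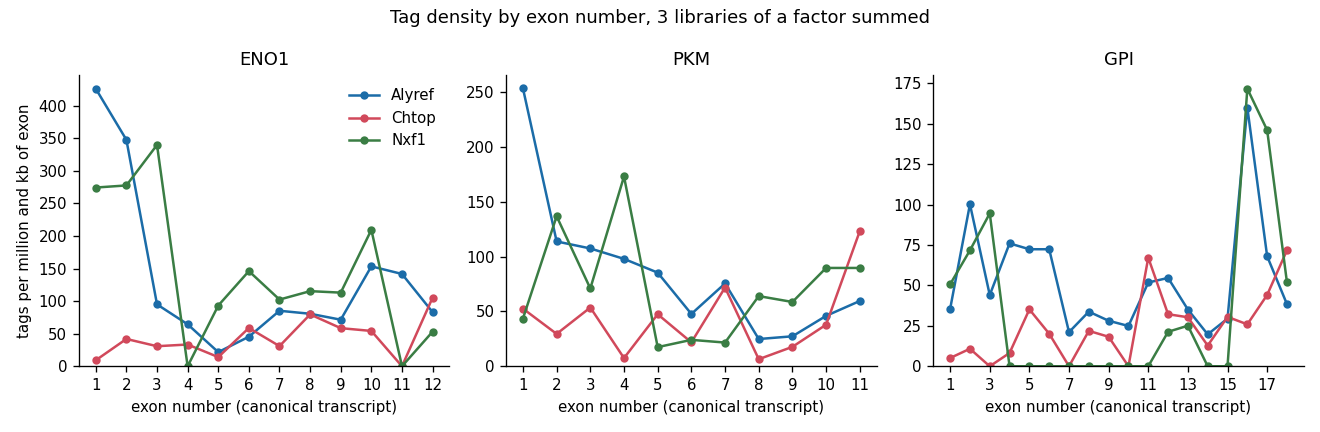
CPM per kb of exon (y axis) by exon number of the canonical transcript (x axis) in ENO1, PKM and GPI, with the 3 libraries of each factor summed. In ENO1 the Alyref line starts at 426 in exon 1 while Chtop starts at 9.20, and in the last exon the values are 83.0 and 105.3.

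Intronic tags were uneven between introns. GPI intron 9, chr19:34872425-34884152, held 148 of the 227 intronic Alyref tags on GPI, and 42 Chtop, 25 Nxf1 and 5 Control tags. PKM intron 8, chr15:72494962-72499068, held 29 of 101 intronic Alyref tags of PKM and 14 Chtop tags, on 1699 nt outside exons. PKM intron 1 held 38 Alyref tags on 11274 of the 24219 intronic nt of the gene, a lower density. ENO1 intron 4 held 39 Alyref and 9 Chtop tags on 2157 nt. In ALDOA 1 intronic base stood out across libraries. At chr16:30077621 on the plus strand there were 8 factor tags in 8 of the 9 factor libraries and 1 in the Control, more libraries than at the top base of any other member. The base, in capitals with 10 nt to each side, is shown to place it.
ALDOA intron: gcttggtttcTgtcctgggaa
Another annotated gene on the same strand, ENSG00000285043, covers this base, so the tags cannot be assigned to ALDOA alone. By contrast the GPI base with most tags, chr19:34891955 in the 3′ UTR, had 11 factor tags from 4 libraries and lies before a run of thymines.
GPI 3′ UTR: ttttgacaacTtttttttttt

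PKM makes the M1 or the M2 form of pyruvate kinase from a pair of mutually exclusive exons, with M2 the form of dividing cells. The M2 exon, chr15:72494795-72494961, had 13 tags, of which 6 were Alyref, 3 Chtop, 3 Nxf1 and 1 Control. The M1 exon, chr15:72495363-72495529, had 5 tags, of which 2 were Alyref, 2 Chtop, 1 Nxf1 and 0 Control. Both exons are 167 nt long. Whether the factors differ in the use of this pair was not tested on so few tags.

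Uracil was common at the crosslinked base. Of 2050 tags in the canonical exons of the members, 48.3% lay on a thymine of the genome (95% Wilson interval 46.2% to 50.5%, counting error only), where 25.1% of the mature sequence is thymine. Over all pooled gene-body tags of the members the share was 48.8% in Alyref, 52.0% in Chtop, 44.6% in Nxf1 (95% Wilson interval 40.1% to 49.1%) and 52.8% in the Control (43.4% to 61.9%). At the 32 internal exon junctions of the members with long flanking exons, tags from 75 to 24 nt upstream made up 27.0% of the pooled Alyref tags within 100 nt (86 of 318), 30% for Chtop (39 of 130) and 17.5% for Nxf1 (18 of 103). The values over all protein-coding genes were 29.6%, 25.2% and 26.5%. Libraries ranged from 25.3% to 43.8% in Alyref, from 29.0% to 33.3% in Chtop and from 14.9% to 50% in Nxf1, where the highest value came from the shallow library 1, and the Control had 3 of 11 tags there.

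Sequence that also lies elsewhere in the genome, such as in processed pseudogenes, limits what can be counted on several members. The deposited tags come from reads that mapped to a single place. Of the 30-nt stretches of mature transcript, 93.1% of PGAM1, 61.3% of TPI1 and 60.4% of GAPDH occur elsewhere in the genome. For LDHA this was 35.7%, for PKM 21.3%, for PGK1 20.6%, for GPI 19.3%, for ENO1 15.4%, for LDHB 12.8% and for ALDOA 6.64%. GPI had 0 pseudogenes by name. Its 791 repeated stretches all start in exon 18, which holds the 3′ UTR, and make up 31.8% of the stretches there. The level of PGAM1 is therefore uncertain, and its 13 pseudogenes held 154 tags where PGAM1 itself had 22. The 65 pseudogenes of GAPDH held 66 tags, the 4 of ENO1 held 30 and the 4 of TPI1 held 27. In all, 104 pseudogenes of the members held 296 tags. The part of repeated sequence in the levels of these genes was not tested.

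**Figure D5:**
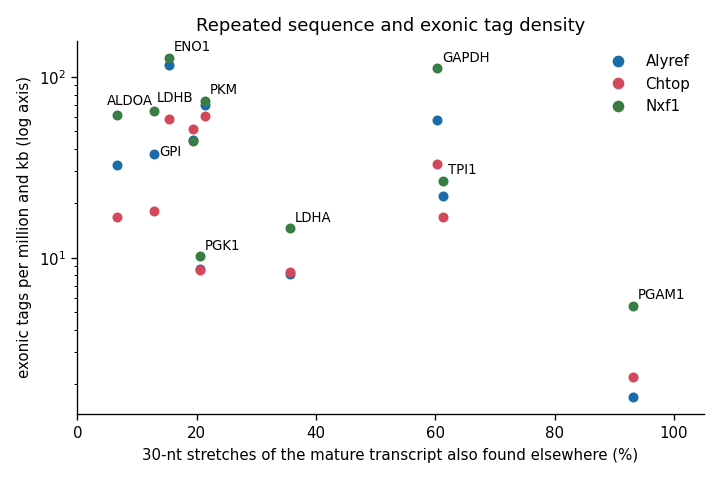
Exonic CPM per kb (y axis, log scale) of each member in Alyref, Chtop and Nxf1 against the percentage of its 30-nt stretches found elsewhere in the genome (x axis). PGAM1, at 93.1%, is the lowest for each factor, while GAPDH at 60.4% lies among the highest.

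Other genes of glucose uptake, glycolysis and lactate transport were taken as a list of 26, of which 25 had a tag and 6 were tested per gene. In the gene-body counts 1 of the 6 was called. ENO2, the neuronal enolase, had 8, 73 and 58 tags in the Alyref libraries, 2, 56 and 61 in the Chtop libraries, 0, 4 and 2 in the Nxf1 libraries and 1, 0 and 1 in the Control libraries. It was higher in Alyref than in Nxf1 at 2.08 on the log2 scale (edgeR adjusted p = 0.0433) and higher in Chtop than in Nxf1 at 2.29 (edgeR adjusted p = 0.00811). The 2.63% of all genes higher in Alyref than in Nxf1 and the 14.2% higher in Chtop than in Nxf1 are the background of these calls. Without its Chtop libraries ENO2 would not have passed the filter on low counts. Its test between Chtop and Nxf1 is therefore not independent of the filter. ENO1, which encodes the enolase of most tissues, lay on the other side of Nxf1 in its fit with Chtop. With exonic tags only, 3 of the 26 genes were tested, and PFKP at 1.29 and PFKL at 0.93 on the log2 scale, subunits of phosphofructokinase, were higher in Alyref than in Chtop (edgeR adjusted p = 0.000812 and 0.0177). These 2 of 3 compare with 17.8% of all genes higher in Alyref in that fit.

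The genes whose levels over the 12 libraries were most like the mean log2 CPM of the 6 tested members were CCT4 and SPPL3 with a Pearson r of 0.893, CROCC with 0.886, NFIC with 0.877 and HSP90AA1 with 0.869. They were the highest of 3381 protein-coding genes with a median r of 0.202, and the libraries of shallow depth weigh on these values. The members themselves had r values of 0.949 for GAPDH, 0.880 for GPI, 0.833 for ENO1, 0.339 for PKM, 0.240 for LDHB and -0.305 for PGK1 with that mean. Each member is part of that mean, so its r cannot be set beside those of the other genes.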

How the data were processed

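Per the labels and the study's methods, the authors removed phiX reads with Bowtie 1.1.2, took random barcodes with UMI-tools 0.5.3, aligned to hg19 with STAR 2.4.2a and kept reads with 1 place in the genome. Lanes of a library were then merged and reads with the same barcode and place collapsed. The deposited files give counts, the number of deduplicated reads (tags) at each crosslinked base and strand. Unused per-sample columns numbered 0.

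Tags were assigned by strand to GENCODE release 44 genes mapped to GRCh37, a later annotation than that of the alignment, leaving out readthrough genes. A tag counted for every gene whose body held it. Tags per gene were tested with edgeR 4.0.16 in R 4.3.3 (quasi-likelihood F-test, TMM, filterByExpr, 12 libraries in 1 fit, library size the total of tags, Benjamini-Hochberg over all genes tested). Region and exon use were tested with diffSpliceDGE. Alternatives were DESeq2 1.42.0, upper-quartile scaling, other filters, exonic tags, crosslinked positions, a replicate block and leaving out each library. The scripts were tested on simulated data. Library pairs of a group differed by more than sampling noise, with a chi-square per degree of freedom of 1.41 to 2.55, so each library counted once. Per the titles, libraries 1 and 3 of each group shared HiSeq lanes and library 2 was on others, with all groups on each lane.

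The members, the list of other pathway genes and the tests were chosen with earlier results of these data known. All 10 members are named. Other pathway genes are named where called, bases by most factor tags, and the likeness genes are the 5 with the highest r outside both lists. Intervals and limits from counts cover counting error only. Per-gene shares used genes with at least 5 tags in each group.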

Additional observations from a re-analysis of the deposited data

How the results depend on the processing

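Member calls per gene depended on how tags were counted. Between Alyref and Chtop the count of members called was 1 in the edgeR fit, 0 with DESeq2, 0 without a filter on low counts, 3 with exonic tags only and 0 without a filter with exonic tags only. Between Chtop and Nxf1 it was 3, and became 0 without a filter, 5 with exonic tags only and 4, ALDOA among them, without a filter with exonic tags only. Between Alyref and Nxf1 it rose from 0 to 4 with exonic tags only, and of these ENO1 and GPI were lost in most fits leaving out a library. Between Chtop and the Control it rose from 0 to 1, ENO1, with DESeq2 or exonic tags only. Without each library in turn it ranged from 0 to 1 between Alyref and Chtop and from 0 to 4 between Chtop and Nxf1. Members with shifted region use between Alyref and Chtop numbered 0, 1 with at least 10 tags and 3 with adjusted deviances added, and members with shifted exon use 0, 1 and 2. Without each library, region use ranged from 0 to 2 between Alyref and Chtop and from 0 to 1 between Chtop and Nxf1. The settings without a filter but with exonic tags and with adjusted deviances were chosen after seeing the data. The cause of these changes was not tested.

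Signs turned for members that were not called. Without a filter the log2 fold change between Alyref and Nxf1 was 0.30 for ENO1 and 0.44 for GPI, and between Chtop and Nxf1 0.18 for PKM, 0.17 for GPI and 0.14 for PGK1, although ENO1, GAPDH and LDHB stayed below 0 there. PKM between Alyref and Nxf1 was -0.041 with DESeq2 and -0.80 with exonic tags only, and PGK1 between Alyref and Chtop was 0.20 without a filter with exonic tags only. Leaving out each library gave -0.50 to 0.38 for ENO1, -0.20 to 0.33 for PKM and -0.26 to 0.0049 for GPI between Alyref and Nxf1, -0.48 to 0.018 for PKM between Chtop and Nxf1, and -0.034 to 0.34 for GPI between Alyref and Chtop.

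Without GPI, the member with most tags, the Alyref shares were 11.6% for 5′ UTR, 39.6% for CDS, 12.1% for 3′ UTR and 20.0% for introns, and the Chtop CDS share was 32.8%. With members weighted equally the 5′ UTR share of Nxf1 was 7.64%, the CDS share 37.7% in Alyref, 32.6% in Chtop and 43.1% in the Control, and the Alyref 3′ UTR share 15.9%. Merging the exons of all isoforms raised the exonic share to 74.2% in Alyref, 77.3% in Chtop and 72.6% in the Control.

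With replicate number as a block, 1 member was called between Alyref and Chtop and 3 between Chtop and Nxf1, as without it. Deviations of libraries with the same number correlated at -0.18 to 0.33 over 18 pairs, those with other numbers at -0.35 to 0.28 over 36, so the numbers were not taken as pairs.

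The Control libraries and Nxf1 library 1 are shallow, and the part of depth in the lack of member calls against the Control was not tested. Tags on repeated sequence, above all of PGAM1, TPI1 and GAPDH, are undercounted by unique mapping to an extent that was not measured. Regions and exons other than those of GPI reached the test only after the count filter was relaxed. Groups of 3 libraries are too small for a test of outlying libraries, so none was made.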
